A study of Mus musculus with 6 samples.

Results

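The complement genes described here are 9 components, regulators and receptors, namely C1s1, C4b, C2, C3, Cfb, Cfd, Serping1, Cd55 and C3ar1, out of 41126 genes in the all-gene table. The 9 were selected on being complement genes made by fibroblasts and chosen by their measured fragments and FPKM in GOF against Control, so their values in this comparison are given as a description and without a test. FPKM, fragments scaled by transcript length and by library size, is a level that can be compared between genes. The cultures were dermal fibroblasts taken from the ventral skin of mice of strain CD1, C57Bl6 at postnatal day 4. The 3 GOF cultures carried Ctnnb1 Δex3/+ and received Adenovirus-Cre, which removes exon 3 of the β-catenin gene and leaves a stabilized protein. The 3 Control cultures are labelled AdGFP and +/+, whereas the study's text gives them the same transgene with Adenovirus-GFP, so the allele they carried cannot be settled here. One treatment text, Ad-Cre at a multiplicity of infection of 366 to 500 for 6 h without serum, stands for every culture. The 6 h is the length of infection, and the study's text places the RNA for sequencing days after it. Each culture was unsorted dermis from 1 animal, expanded in serum, and in bulk RNA fewer cells of a type and less RNA per cell cannot be told apart.

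Each library held 35980831 to 42834467 fragments. Axin2, a direct target of β-catenin, stood at 0.152 ± 0.0218 FPKM in Control and at 17.5 ± 2.66 FPKM in GOF (SD, n = 3; log2 fold change 6.98, SE 0.26, adjusted p = 4.95e-05, edgeR quasi-likelihood test over 15462 genes), and Ctnnb1 at 267 ± 16.3 and 263 ± 28.8. The 8 fibroblast markers summed to between 2496 and 3823 FPKM in every library, whereas 7 keratinocyte markers summed to at most 0.578 and 5 mast cell markers to at most 0.393. Control 0 and GOF 2 share an animal number in their titles, as do Control 2 and GOF 0. Control 0 and GOF 2 were the lowest libraries of their groups for several genes below, which are therefore also given without that animal. That fit leaves only Control 1 and 2 against GOF 0 and 1, and takes Control 2 and GOF 0 as independent.

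Complement is a cascade of plasma and tissue proteins that marks surfaces for removal and recruits immune cells. In the classical pathway C1q binds a target, the proteases C1r and C1s become active, and C1s cleaves C4 and C2, whose fragments form the enzyme that cleaves C3. Factor B and factor D build the corresponding enzyme of the alternative pathway. C1 inhibitor blocks C1r and C1s, CD55 speeds the decay of both C3 convertases on the cell's own membrane, and the C3a receptor responds to the small fragment released from C3. The liver makes most plasma complement, and fibroblasts of many tissues also secrete several components.

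Promoter sequences, 250 bases before to 50 bases after the start of the gene, were present in RefSeq (GRCm38.p6) tables for 5 of the 9 genes. The windows of C1s1 and Cd55 are shown because these genes lay apart between the groups in opposite directions, and that of C3 because it is the protein on which the pathways meet. All run 5′ to 3′ on the gene's strand, which is the minus strand, and capitals mark matches to the motifs named next. The windows are chr6:124542310-124542609 for C1s1, chr1:130462695-130462994 for Cd55 and chr17:57228087-57228386 for C3.
C1s1: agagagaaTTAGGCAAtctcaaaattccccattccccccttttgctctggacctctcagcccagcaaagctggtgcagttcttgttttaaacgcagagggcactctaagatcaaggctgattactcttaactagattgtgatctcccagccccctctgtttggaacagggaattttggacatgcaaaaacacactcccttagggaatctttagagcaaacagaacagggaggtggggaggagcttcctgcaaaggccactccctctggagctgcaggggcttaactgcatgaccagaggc
Cd55: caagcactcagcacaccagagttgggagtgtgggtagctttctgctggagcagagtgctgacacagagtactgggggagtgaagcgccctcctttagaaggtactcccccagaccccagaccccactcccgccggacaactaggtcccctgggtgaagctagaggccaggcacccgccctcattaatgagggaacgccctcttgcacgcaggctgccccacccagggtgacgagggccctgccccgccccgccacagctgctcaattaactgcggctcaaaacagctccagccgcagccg
C3: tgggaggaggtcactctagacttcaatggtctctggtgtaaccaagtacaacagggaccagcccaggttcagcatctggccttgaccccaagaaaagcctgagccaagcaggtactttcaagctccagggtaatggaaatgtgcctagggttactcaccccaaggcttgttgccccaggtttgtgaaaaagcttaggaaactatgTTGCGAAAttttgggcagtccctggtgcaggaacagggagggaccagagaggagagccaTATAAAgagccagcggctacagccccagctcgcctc

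Both strands were searched for TCF/LEF cores (CTTTGA, held by 16.2% of 27025 promoters of the same length, and CTTTGT, 18.7%), a STAT motif (TTCNNNGAA, 8.47%), a C/EBP motif (TTGCNNAA, 10.8%), an interferon-stimulated motif (TTTCNNTTT, 10.7%), an NF-κB motif (GGGANTTTC, 1.15%) and the string TATAAA (14.2%), all chosen after the values were known. The C1s1 window, the first of 2 entries for this gene, held 1 match, to the C/EBP motif on the opposite strand. The other entry was not searched. The C3 window held a C/EBP match at base 206 and TATAAA at base 265, which lies after the start of the gene, and the Cd55 window held no match. The C3ar1 window held an interferon-stimulated match at base 41 and TATAAA at base 16, and that of Cfd held none. A match is a string of letters, and its use by a factor was not tested.

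In Control cultures C1s1 had the highest level of the 9 genes, at 41.9 ± 14.5 FPKM, followed by Cd55 at 24.7 ± 4.73, Serping1 at 23.3 ± 7.1, C4b at 7.64 ± 4.36 and C2 at 4.17 ± 0.502 (SD, n = 3). Cfb stood at 1.14 ± 0.229, C3 at 0.452 ± 0.191 and C3ar1 at 0.235 ± 0.151 FPKM, and Cfd had no fragment in any Control library. The libraries of 4 pairs of neighbours in this order overlapped, namely C1s1 and Cd55, Cd55 and Serping1, C4b and C2, and C3 and C3ar1. In GOF cultures the order was Cd55 (41.1 ± 6.66 FPKM), Serping1 (23.2 ± 8.44), C2 (10.4 ± 2.04), C1s1 (9.87 ± 2.32), Cfb (0.708 ± 0.193), C4b (0.434 ± 0.101), C3 (0.344 ± 0.181) and C3ar1 (0.291 ± 0.135), where C2 overlapped C1s1, and C3 overlapped both C4b and C3ar1. C1s1 thus moved from the first to the fourth place and C4b from the fourth to the sixth, while C2 moved from the fifth to the third. Together the 9 genes took 0.0221% to 0.0426% of a Control library and 0.0212% to 0.0255% of a GOF library. The levels of C3, C3ar1 and Cfd, under 1 FPKM in every library, go against counting these 3 among the genes that these cultures expressed at more than a trace.

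A gene was called where the adjusted p was under 0.05 and the fold change over 2. Of the 9 genes, 8 passed the filter on low counts, and of these C2 was past the thresholds as higher in GOF, C1s1 and C4b as lower, and 5 were not called. Over all 15462 genes tested 12.3% were called, 6.69% as higher and 5.64% as lower. FPKM did not overlap between the groups for 5 of the 8, with C2 and Cd55 higher in GOF and C1s1, C4b and Cfb lower, against 39.5% of all genes tested. The median log2 fold change was -0.47 over the 8 genes and -0.016 over all genes tested. Since the choice of the 9 used this comparison, nothing is read from these counts.

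**Figure D1:**
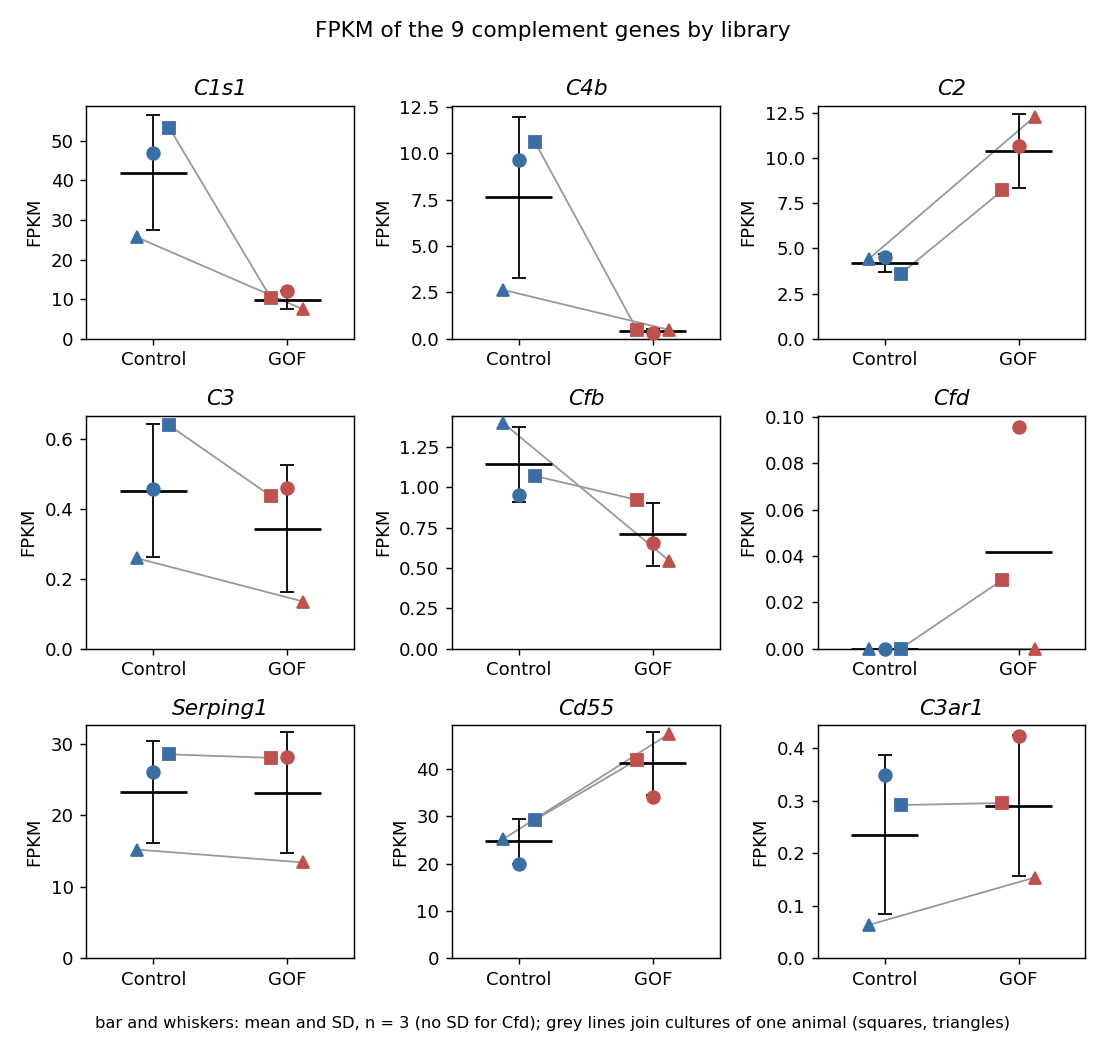
FPKM (vertical axes, linear, each from 0) of the 9 complement genes in the 3 Control (blue) and 3 GOF (red) libraries, with the mean and SD as black bars and whiskers, and grey lines joining cultures of the same animal. The GOF points of C1s1, C4b and Cfb all sit under the Control points, those of C2 and Cd55 sit above them, and C3, Serping1 and C3ar1 overlapped. Cfd, drawn without SD, had no fragment in 4 libraries.

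Components of the classical pathway differed between the groups in both directions. C1s1, the protease of the C1 complex that cleaves C4 and C2, stood at 25.6, 46.9 and 53.2 FPKM in Control 0, 1 and 2 and at 10.2, 12 and 7.43 FPKM in GOF 0, 1 and 2. All GOF libraries lay below all Control libraries, at a fitted log2 fold change of -2.15 (SE 0.31, 4.45-fold lower), and -2.22 without the animal of Control 0 and GOF 2. Its copy C1s2 had at most 8 fragments in any library. It holds 7.9% of the 100-base windows of C1s1 without a mismatch and 37.4% with at most 2 mismatches. Reads shared by the copies were not separated. The antisense gene Gm16567 on the other strand of C1s1 had 371, 786 and 856 fragments in Control and 182, 228 and 124 in GOF, which was 11.1% to 13.9% of the fragments of C1s1 in every library. Whether counting kept the strands apart is not stated. C1s1 lies on chromosome 6 (124530345 to 124542359, minus strand, GRCm38, which is mm10), 6901 bases from C1ra, the gene of the partner protease.

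C4b, which encodes complement component C4, had the widest difference of the 9. It stood at 2.64, 9.66 and 10.6 FPKM in Control 0, 1 and 2, and at 0.499, 0.318 and 0.485 FPKM in GOF, from 453, 2658 and 2708 against 120, 77 and 121 fragments. The GOF libraries lay close together below every Control library, and Control 0 lay well below the other 2 Control libraries. The fitted log2 fold change was -4.19 (SE 0.61, 18.3-fold lower). It was -4.73 without the animal of Control 0 and GOF 2, and -3.35 with the animal as a block. The block fit rests on the 2 pairs given next. Within animals the log2 difference in normalised counts (fragments over the TMM-scaled library size) was -4.49 from Control 2 to GOF 0 and -2.15 from Control 0 to GOF 2.

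C4b and its copy C4a share much of their sequence. Their longest annotated transcripts, 5379 and 5371 bases, were 96.2% identical, and of all 100-base windows of C4b, the length of a read, 16.5% occurred without a mismatch in C4a and 49.6% with at most 2 mismatches. The genes lie 65209 bases apart on chromosome 17. In the all-gene table C4a had 17, 28 and 35 fragments in Control and 11, 15 and 11 in GOF. Its log2 fold change of -1.13 (SE 0.36, adjusted p = 0.0602, edgeR) did not pass, but did pass without Control 0 (-1.32, adjusted p = 0.0419).

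In the separate lncRNA table C4a was listed with 345, 1617 and 1705 fragments in Control and 84, 73 and 76 in GOF, which is 60.8% to 94.8% of the C4b fragments of the same library in the all-gene table. There its fitted log2 fold change was -3.88 (SE 0.44, in a fit of 1389 genes). Its fragments may include those of C4b, which was chosen by this comparison, so the value is given without a test. The fragments given to C4a in the lncRNA table were thus 4.87 to 57.8 times those given to it in the all-gene table. With C4b and C4a summed within the all-gene table the log2 fold change was -4.05 (SE 0.59). C4a made up 1.04% to 3.62% of that sum in Control and 8.33% to 16.3% in GOF. The sum could therefore differ little from C4b alone, and says nothing on shared fragments. How many fragments belong to each copy cannot be told from these tables, and C4a reads in the C4b value were not separated.

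**Figure D2:**
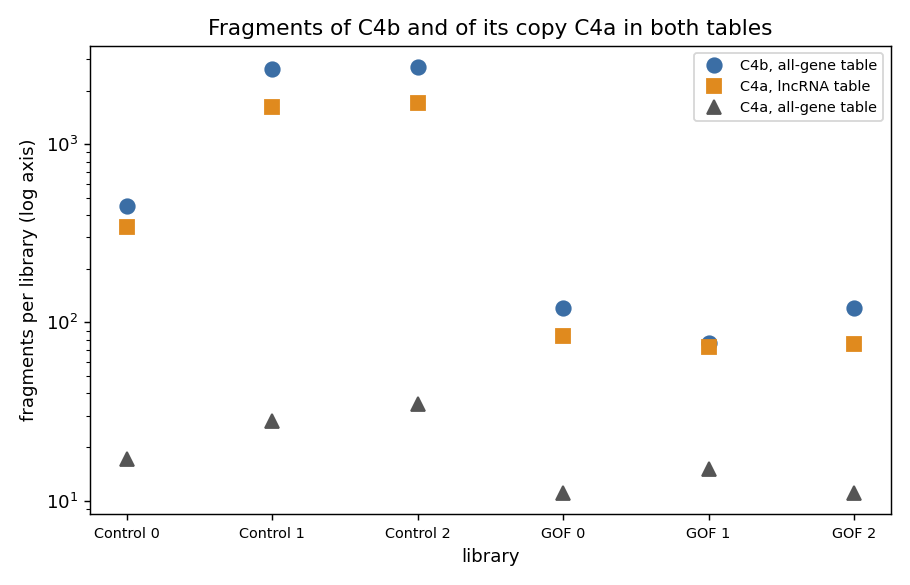
Fragments per library (vertical axis, logarithmic) of C4b in the all-gene table, of C4a in the lncRNA table and of C4a in the all-gene table, for the 6 libraries along the horizontal axis. C4b and C4a of the lncRNA table lie near each other in each library, from 2658 and 1617 in Control 1 to 77 and 73 in GOF 1, while C4a of the all-gene table stays between 11 and 35.

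C2, the protease component that pairs with C4 in the classical C3 convertase, went the other way. It stood at 4.41, 4.51 and 3.6 FPKM in Control 0, 1 and 2 and at 8.22, 10.7 and 12.3 FPKM in GOF 0, 1 and 2. Every GOF library lay above every Control library, with a fitted log2 fold change of 1.33 (SE 0.17, 2.51-fold higher), and the 2 within-animal differences were 1.23 and 1.49. Zbtb12, on the opposite strand within C2, had 119, 195 and 182 fragments in Control and 134, 106 and 139 in GOF, so its fragments did not move with those of C2. Gm20547, an annotated readthrough of C2 and Cfb on the same strand, had at most 6.96 fragments in any library.

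C3, the central component, was scarce. It stood at 0.259, 0.458 and 0.64 FPKM in Control 0, 1 and 2 and at 0.437, 0.461 and 0.135 FPKM in GOF, from 60, 124 and 184 against 63, 77 and 30 fragments. The groups overlapped on both scales. The fragments gave a fitted log2 fold change of -1.12 (SE 0.46), whereas the log2 ratio of the mean FPKM was -0.393. FPKM per 100 fragments was computed from the authors' values and divided by a factor for each library. That factor was the median, over genes tested, of the same ratio relative to each gene's mean. For C3 the result was 0.356 to 0.392 in Control and 0.458 to 0.716 in GOF, so the scales gave different sizes. Within animals the log2 difference was -1.54 and -1.24. The fit with the animal as a block, which rests on these same 2 animals, gave -1.40.

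Cfb, factor B of the alternative pathway, lies 85 bases from C2 on the same strand of chromosome 17. It stood at 1.4, 0.955 and 1.07 FPKM in Control and at 0.922, 0.656 and 0.546 FPKM in GOF. The groups did not overlap, though the lowest Control and the highest GOF library were close, and the fitted log2 fold change was -0.90 (SE 0.26). C2 and Cfb, neighbours by position, thus differed between the groups in opposite directions. Despite their common origin the pair shared no 100-base window, also with 2 mismatches allowed. Cfd, factor D or adipsin, best known from fat cells, had 0 fragments in every Control library and 1, 3 and 0 in GOF 0, 1 and 2, at or under the limit of 3 fragments that a count of 0 allows, so no fold is given.

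Of the regulators, Serping1, which encodes C1 inhibitor, stood at 15.2, 26.1 and 28.5 FPKM in Control 0, 1 and 2 and at 28, 28.1 and 13.4 FPKM in GOF 0, 1 and 2. The groups overlapped, and the low library of each came from the same animal. The fitted log2 fold change was -0.05 (SE 0.33), and its sign changed with the library left out, from -0.29 without Control 0 to 0.22 without GOF 2, and was -0.01 without the animal of both. The level of the inhibitor thus differed little between the group means while C1s1, one of its target proteases, was 4.45-fold lower. Within animals Serping1 differed by -0.03 and -0.17 and C1s1 by -2.46 and -1.90 on the log2 scale.

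Cd55, decay-accelerating factor, stood at 25.1, 19.8 and 29.2 FPKM in Control and at 41.8, 34.1 and 47.3 FPKM in GOF. All GOF libraries lay above all Control libraries, at a fitted log2 fold change of 0.74 (SE 0.15, 1.67-fold higher), below the fold threshold of 2. Its antisense gene Gm16083 had at most 13 fragments. Of the 100-base windows of Cd55, 6.86% occurred without a mismatch in its copy Cd55b and 12.4% with at most 2 mismatches. Cd55b had at most 3 fragments in any library.

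C3ar1, the receptor for C3a, is typical of myeloid cells. It had 10, 62 and 54 fragments in Control 0, 1 and 2 and 55, 78 and 26 in GOF 0, 1 and 2, or 0.0637, 0.35 and 0.292 against 0.296, 0.423 and 0.154 FPKM. The groups overlapped (log2 fold change 0.34, SE 0.62), and the fitted value was -0.09 without Control 0, -0.08 without GOF 1, and 0.25 without the animal of Control 0 and GOF 2. Tyrobp, a signalling adaptor of myeloid cells, was low in the same libraries, at 0.0583 in Control 0 and 0.0493 in GOF 2 against 0.936 to 1.93 FPKM in the others. Other markers of such cells went both ways. Lyz2 was also lowest of its group in Control 0 (8.25) and GOF 2 (4.22). Aif1 was highest there, at 1.06 and 0.96 against 0.286 to 0.677 FPKM in the others. The 12 macrophage markers summed to 14.8, 23.6 and 24.5 FPKM in Control 0, 1 and 2 and to 19.1, 31.5 and 11.7 in GOF, with Lyz2 the highest of them, 8 of the 12 at a mean under 1 FPKM in both groups, and Ptprc, Adgre1 and Fcgr1 at or near 0. Csf1r rose in GOF (1.05 to 1.46 against 3.38 to 4.79 FPKM, log2 fold change 1.52, adjusted p = 0.00186, edgeR). The part of such cells in the values of C3ar1 was not tested.

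The other complement genes were taken from a list of 52, all in the table, of which 14 had at most 3 fragments in every library and 23 were tested. Of these 23, 4 rose in GOF, 4 fell and 15 did not pass, while over all genes tested 6.69% were called as higher and 5.64% as lower. Their median log2 fold change was -0.28 against -0.016 over all genes tested. Those that rose included Masp1, Colec10 and Cpn1, and those that fell were C1ra, C8g, Clu and Csmd3. The adjusted p-values below are from the edgeR quasi-likelihood test over all genes.

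**Figure D3:**
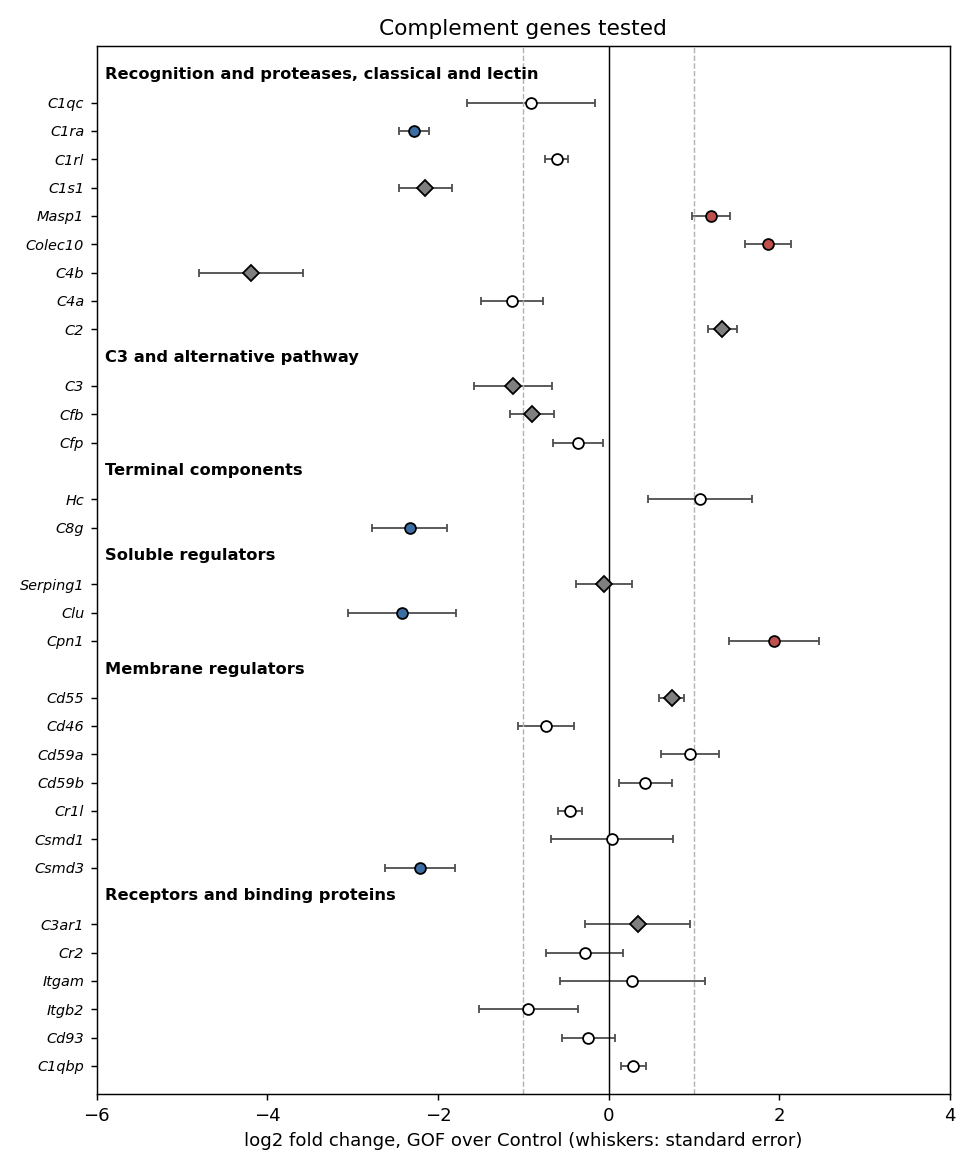
Log2 fold change of GOF over Control (horizontal axis) with its standard error for complement genes tested, ordered by role. Grey diamonds are the genes the report is about, given without a test, and circles are the other complement genes, red where called as higher, blue where called as lower and white where not called, with dashed lines at a fold change of 2. C1ra at -2.28 lies beside C1s1 at -2.15, and C4b at -4.19 lies farthest from 0.

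C1ra, the protease that activates C1s, stood at 15.5, 18.3 and 23 FPKM in Control and at 4.48, 3.44 and 4.03 FPKM in GOF, and fell by 2.28 on the log2 scale (SE 0.18, adjusted p = 0.000347). Both proteases of the C1 complex were thus lower in every GOF library. Of the windows of C1ra 34.5% occurred without a mismatch in its copy C1rb and 61.9% with at most 2 mismatches. C1rb had at most 6 fragments, and shared reads were not separated. C1rl, a C1r-like protease, was also lower in every GOF library (log2 fold change -0.61, adjusted p = 0.0136) but under the fold threshold. The C1q chains that bind the target were at trace level, with at most 30 fragments of C1qa, 10 of C1qb and 17 of C1qc in any library. Control 0 and GOF 2 held 0 to 2 fragments of each.

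In the lectin pathway Masp1, a protease of its recognition complexes, rose from 4.26 ± 0.947 to 9.93 ± 2.15 FPKM (SD, n = 3; log2 fold change 1.20, adjusted p = 0.00932). Rtp4, overlapping it on the opposite strand, had 1071, 220 and 682 fragments in Control and 133, 169 and 74 in GOF, a difference in the other direction. Colec10, a soluble collectin, rose from 0.307 ± 0.0945 to 1.12 ± 0.132 FPKM (1.87, adjusted p = 0.00321). Of the terminal components C8g fell from 0.931 ± 0.143 to 0.205 ± 0.102 FPKM (-2.33, adjusted p = 0.00975), on at most 39 fragments, within a locus where Fbxw5 on the other strand had 917 to 1302.

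Among soluble regulators Clu, the chaperone clusterin, which also blocks the membrane attack complex, stood at 1.26, 5.22 and 7.81 FPKM in Control and at 1.12, 1.06 and 0.478 in GOF, and fell (log2 fold change -2.42, SE 0.63, adjusted p = 0.0314). Its call was lost without any single library other than Control 0 (adjusted p = 0.0793 to 0.0891). Cpn1, a carboxypeptidase that inactivates C3a, was called on at most 29 fragments (1.94, adjusted p = 0.0377) and likewise lost without any library but Control 0 (adjusted p = 0.0624 to 0.127).

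Of the membrane regulators, the call was on Csmd3 alone, at under 0.1 FPKM in every library (-2.21, adjusted p = 0.00899). Those expressed at a higher level did not pass, and differed in sign. Cd59a, which blocks the membrane attack complex, stood at 10.2 ± 4.06 FPKM in Control and 20.5 ± 5.08 in GOF (0.96, adjusted p = 0.0861), and without Control 0 or without the animal of Control 0 and GOF 2 it was called. Cr1l, which encodes the rodent regulator Crry, stood at 35.3 ± 5.06 and 25.9 ± 2.65 FPKM (-0.45, adjusted p = 0.0625). C1qbp, a mitochondrial protein that also binds C1q, stood at 38.2 ± 5.03 and 47.7 ± 5.95 FPKM (0.29, adjusted p = 0.217). Of the 5 receptors and binding proteins tested 0 were called by edgeR, DESeq2 or limma, and 0 had an unadjusted p under 0.05 in edgeR.

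Cytokines and microbial ligands are known to raise the transcription of C3, C4, Cfb and Serping1, so 28 genes of interferon γ, interleukin 6, interleukin 1, TNF and Toll-like receptor signalling were read beside them. All 28 were tested, and 5 fell while 0 rose (0 also with DESeq2 and limma, 4 at an unadjusted p under 0.05 in edgeR), with a median log2 fold change of -0.30. Over all genes tested 5.64% were called as lower and 6.69% as higher. At an adjusted p under 0.05 without the fold threshold 8 were lower and 2 higher, the latter being Jak2 (0.93, adjusted p = 0.00102) and Lifr (0.75, adjusted p = 0.0446). Il1r1, the receptor of interleukin 1, fell from 30.7 ± 8.39 to 7.21 ± 2.46 FPKM (SD, n = 3; -2.08, adjusted p = 0.00468). Il6st, the shared signal-transducing subunit of the interleukin 6 receptors, fell from 82.7 ± 18.9 to 33.5 ± 0.728 FPKM (-1.21, adjusted p = 0.00551), but with the animal as a block it was -0.99 (adjusted p = 0.0106), under the fold threshold.

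Cebpd, a C/EBP factor of the acute phase response, fell from 52.3 ± 23.1 to 14.8 ± 3.7 FPKM (-1.89, adjusted p = 0.0173), a call lost without GOF 0 (adjusted p = 0.079) or GOF 1 (adjusted p = 0.0583). Tlr3, a receptor for double-stranded RNA, fell by 1.04 on the log2 scale (adjusted p = 0.00839), just over the fold threshold, and was under it without Control 0 (-0.94) or GOF 2 (-0.96). Stat3 (65.9 ± 11.8 and 53.4 ± 0.746 FPKM, adjusted p = 0.201) and Tnfrsf1a (63.8 ± 10.8 and 52.5 ± 6.7, adjusted p = 0.14) did not pass. The relation of these genes to the complement genes was not tested.

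**Figure D4:**
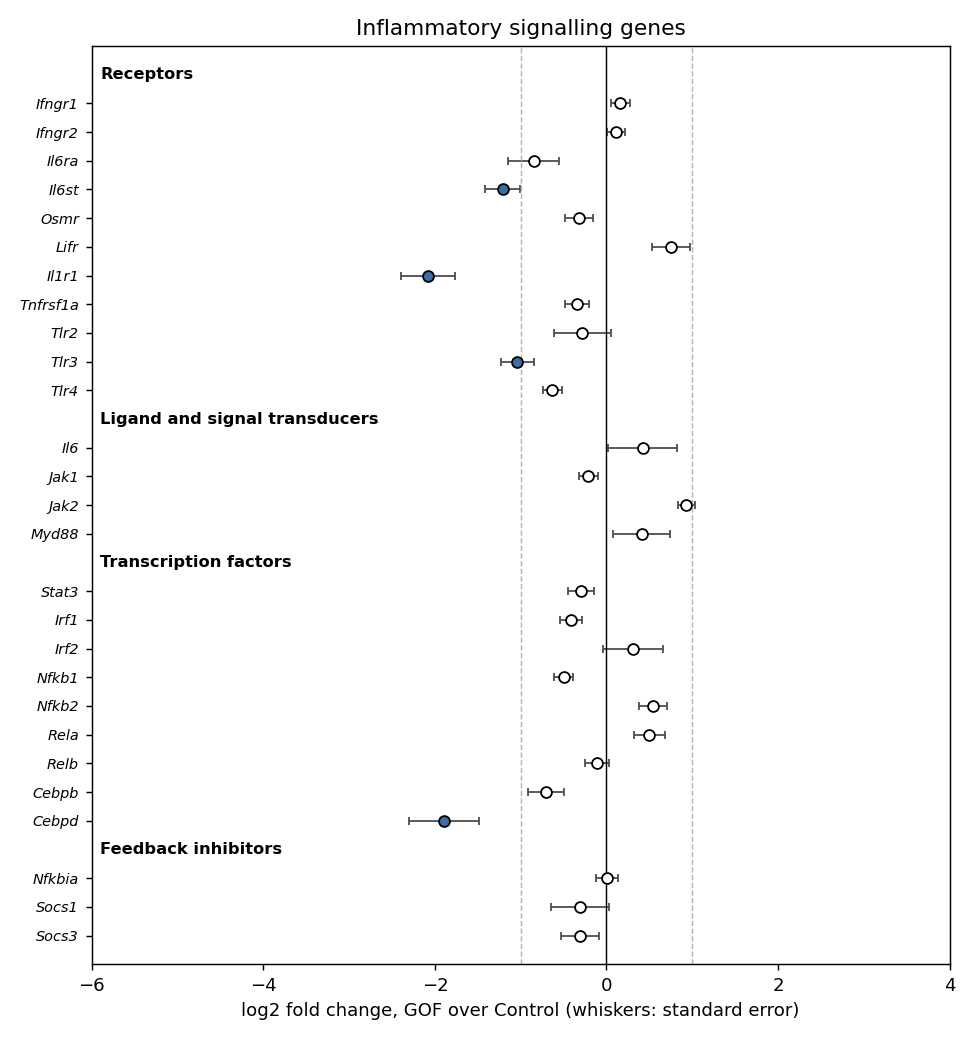
Log2 fold change of GOF over Control (horizontal axis) with its standard error for genes of the inflammatory signalling list, blue where called as lower and white where not called, with dashed lines at a fold change of 2. The called genes plotted, from Il1r1 at -2.08 to Tlr3 at -1.04, lie left of the dashed line, and none of those plotted lies right of the other one.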

How the data were processed

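RNA from 3 Control and 3 GOF cultures was sequenced by the authors as stranded paired-end libraries, mapped to mm10 with TopHat and summarised with Cuffdiff (versions and strand setting not given in the sources used here). The estimated counts used are the fragments that Cuffdiff assigned to each gene before scaling, as deposited. FPKM values were deposited after the authors' scaling by transcript length and between libraries. A further 4 columns of per-library values, scaled fragments of both tables, were not used, and 32 genes whose estimate failed were left out. Of the deposited identifiers 97.9% matched GENCODE M21. Fragments were not whole in 4.95% of values and were rounded.

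Genes were fitted in R 4.3.3 with edgeR 4.0.16 (TMM, filterByExpr, quasi-likelihood test, Benjamini-Hochberg adjustment over 15462 genes), without covariates, and called where the fold change exceeded 2 and the adjusted p was under 0.05. On simulated counts with 200 genes changed by 2 on the log2 scale, 177 were recovered and 11 of 15053 unchanged genes were called. The simulated libraries were independent and held fewer changed genes than were called here, so the rate of false calls in these data is not measured by them. The lncRNA table was fitted on its own. In both, the standard error was taken as the absolute log2 fold change divided by the square root of the quasi-likelihood F statistic. Alternatives were normalization by upper quartile or by library total, keeping genes of low counts, an FPKM of at least 1 in 3 libraries, limma 3.58.1 on log2(FPKM + 1) and on log2(FPKM + 0.1), DESeq2 1.42.0, blocks by label number or animal, and each library left out. Copies were compared on their longest GENCODE transcripts with Biopython 1.88.

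The members, lists, motifs and the rule for named genes were chosen with earlier results of these data known. The rule names the 9 genes, Axin2, Ctnnb1 and C4a, every called gene of each list, the 5 other complement and 3 signalling genes with the highest mean FPKM, the 5 genes most like C3, and genes overlapping a member. Some genes that the rule names are not reported here. Genes named beyond it (C1rl, the C1q genes, Jak2, Lifr, Tyrobp, other cell type markers, and the genes on the other strand of Masp1 and C8g) were chosen after their values were seen. Label numbers did not pair cultures (correlations of deviations from the group means -0.41, 0.0539 and -0.441), whereas the animal numbers in the titles did (0.408 and 0.46). Control 1 and GOF 1 had no partner. The fit with the animal as a block therefore compares the groups only within the 2 animals that had cultures in both. Its values are not independent of the within-animal differences. Cultures of 1 animal in both groups are not independent, and p-values of the unblocked fit take them as such.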

Additional observations from a re-analysis of the deposited data

How the results depend on the processing

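Over the alternatives run, the log2 fold change was -2.42 to -1.94 for C1s1, -4.73 to -2.42 for C4b and 1.13 to 1.46 for C2. With limma on log2(FPKM + 1) and log2(FPKM + 0.1), which change the scale and the tool together with the pseudocount, C4b was -2.42 and -3.65, C3 -0.11 and -0.35 and Cfb -0.33 and -0.63, and the cause was not tested. Over all genes 1906 were called, 877 with limma on log2(FPKM + 1), and 1311 to 1961 with 1 library left out. Of the other complement genes 8 were called, 4 where an FPKM of at least 1 in 3 libraries was required (a filter that removes the other 4), 3 with limma on log2(FPKM + 1), and 5 to 10 with 1 library left out. Signalling genes called stayed at 4 or 5. Under the FPKM filter C3, Cfb and C3ar1 gave no value.

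With a replicate block by label number, which does not pair the cultures, 1421 genes were called, 7 of them other complement genes (Clu and Cpn1 lost, Cd59a gained) and 5 signalling genes. With a block by animal 2008 were called, with the same 8 other complement genes and 4 signalling genes, Il6st being lost. That fit compares the groups only within the 2 animals that had cultures in both. Without the animal of Control 0 and GOF 2, an alternative chosen after seeing the data, 2136 were called, with 10 and 5 in the lists. This left only Control 1 and 2 against GOF 0 and 1, with Control 2 and GOF 0 taken as independent though they share an animal. C3 was -1.40 with the block by animal and -1.09 without the animal of Control 0 and GOF 2, past both thresholds in each. In the fit of 6 libraries without a block it was -1.12 and not called. As C3 was chosen by this comparison, nothing is read from this change.

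Counts of C3, C3ar1 and Cfd, at most 184, 78 and 3 fragments, limit what can be said of them at this depth.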

Other observations

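C4b, C2 and Cfb lie in the class III region of the major histocompatibility complex on chromosome 17. Only genes annotated as protein-coding or processed transcript were counted here. Of 25 such genes within 100 kb of any of the 3, 21 were tested and 2 were called, against 12.3% of all genes tested. These 2 were C4b and C2, which were chosen by this comparison, so nothing is read from the count. Near C1s1 on chromosome 6, 3 of 6 such genes within 100 kb were tested, and those called were C1s1, itself chosen by this comparison, and C1ra. The antisense gene Gm16567, which is not of these 2 kinds, had a log2 fold change of -1.93 (SE 0.33).

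Of the 7 adipocyte markers 3 were tested and all 3 fell in GOF, namely Fabp4 (log2 fold change -1.79, adjusted p = 0.00532), Pparg (-1.28, adjusted p = 0.00716) and Cebpa (-2.67, adjusted p = 0.000861, edgeR), while Adipoq, Plin1 and Lep were at or near 0 in every library, as was Cfd. The markers summed to 17.1 to 17.8 FPKM in Control and 3.55 to 6.32 in GOF. Cebpa encodes a further C/EBP factor. Of the 8 fibroblast markers 2 fell, the proteoglycan gene Dcn (-1.67, adjusted p = 0.00584) and the collagen gene Col1a2 (-1.18, adjusted p = 0.0375). Vim was higher in every GOF library but under the fold threshold (0.70, adjusted p = 0.028, edgeR). Among all genes tested 5.64% were called as lower and 6.69% as higher. Of the 6 endothelial markers, summing to 2.71 to 6.59 FPKM over all libraries, Kdr rose (1.77, adjusted p = 0.011) and Tek fell (-2.27, adjusted p = 0.019).

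Of 11420 protein-coding genes with a mean of at least 1 FPKM in a group, Zfp346, Ifnar1, Kif1bp, Tmem231 and Btbd9 had the pattern most like that of C3 over the 6 libraries, with a mean absolute difference of 0.0219 to 0.0443 in log2(FPKM + 1) centred on each gene's mean. C3 itself ranged over 0.531 on that scale, so a gene that varies little lies near it by this measure.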
